A study of Mus musculus with 5 samples.

Results

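Enteroendocrine cells are scattered hormone-secreting cells of the gut epithelium, and 10 genes of these cells were followed through a mouse model of colitis-associated colon cancer. They were chosen by name, as the rows of the deposited table with the symbols Insl5, Pyy, Gcg, Chga, Chgb, Scg2, Tph1, Sst, Sstr1 and Neurod1. All 10 were found among the 52382 genes of the table, and 9 of them had a mean of at least 1 CPM (counts per 1000000 counted reads) over the libraries, as had 14720 genes in all. Neurod1, a transcription factor of endocrine differentiation, was listed at 0 in every library and enters no comparison.

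The colon of wild-type male C57BL/6 mice was sampled in 5 libraries, 1 at each time point. Their age is given as 8 to 12 weeks for every library, W11 included, so it is not read as the age at sampling. W0 is the untreated control, kept on distilled water, and the labels place all libraries in 1 batch. W2 is labelled as given the mutagen azoxymethane (AOM, 8.5 mg per kg) and nothing else. W5, W8 and W11 are labelled as given AOM and cycles of 1.5% DSS in the drinking water (dextran sulfate sodium, an agent that damages the lining of the colon), and each library is named for its week. The design text selects 3 mice for each group, and no source used here says whether their RNA was pooled. One text has the control taken before treatment and another has it killed with treated mice, so its age relative to the other libraries is not known. The libraries held between 13389184 and 20379429 counted reads. With 1 library per time point, no difference below has a replicate check or a p-value. "Rose" and "fell" are used only for a difference of at least 2-fold on the log2(CPM + 1) scale, and intervals are 95% intervals that cover counting error only.

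Enteroendocrine cells arise from secretory progenitors under the transcription factors Neurog3 and Neurod1. They store peptides in dense-core granules, whose matrix is built from the granins, acidic proteins that are sorted together with the hormones. In the colon the L cells make peptide YY, the glucagon-like peptides cut from proglucagon, and insulin-like peptide 5. The enterochromaffin cells make most of the body's serotonin, and the D cells make somatostatin, which restrains the secretion of neighbouring cells. Granins and somatostatin are also made by enteric neurons.

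The samples are labelled both as colon tissue and as intestinal epithelial cells. Smooth muscle markers were present in each library, with a summed level of 3053 to 7030 CPM over 6 genes, so the libraries were not of epithelial cells alone. In such tissue, fewer cells of a type and less RNA per cell cannot be told apart. Pancreatic islet markers were at or near 0: Ins1, Iapp and Slc2a2 were listed at 0 in all libraries, and the 6 islet genes summed to 0.0981 to 0.672 CPM. The 7 acinar genes of the pancreas summed to 0 to 1.14 CPM. Some genes that colon epithelium uses, such as the transcription factor Elf3, were listed at 0 in all libraries, as was Neurog3. A 0 of Neurod1, whose exons overlap those of Cerkl and Gm26755 in GENCODE M21, is therefore not read as absence. None of the other 9 genes overlaps another annotated gene there.

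The summed level of the 10 genes was 681 CPM (W0), 763 (W2) and 681 (W5), and it was 282 CPM at W8 and 266 at W11. At W2, 2 of the 9 measured genes fell and 1 rose, where 4.23% of all genes tested fell and 3.41% rose. At W5, 2 fell and 0 rose, against 1.87% and 6.63% of all genes. At W8, 6 fell and 0 rose, against 3.85% and 7.79%, and at W11, 7 fell and 0 rose, against 16.9% and 11.3%. The median log2 fold of the 9 genes was -0.05 (W2), -0.18 (W5), -1.25 (W8) and -1.95 (W11), beside medians over all genes tested of -0.02, 0.11, 0.11 and -0.15. All 9 lay below their W0 level at W8 and at W11.

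**Figure D1:**
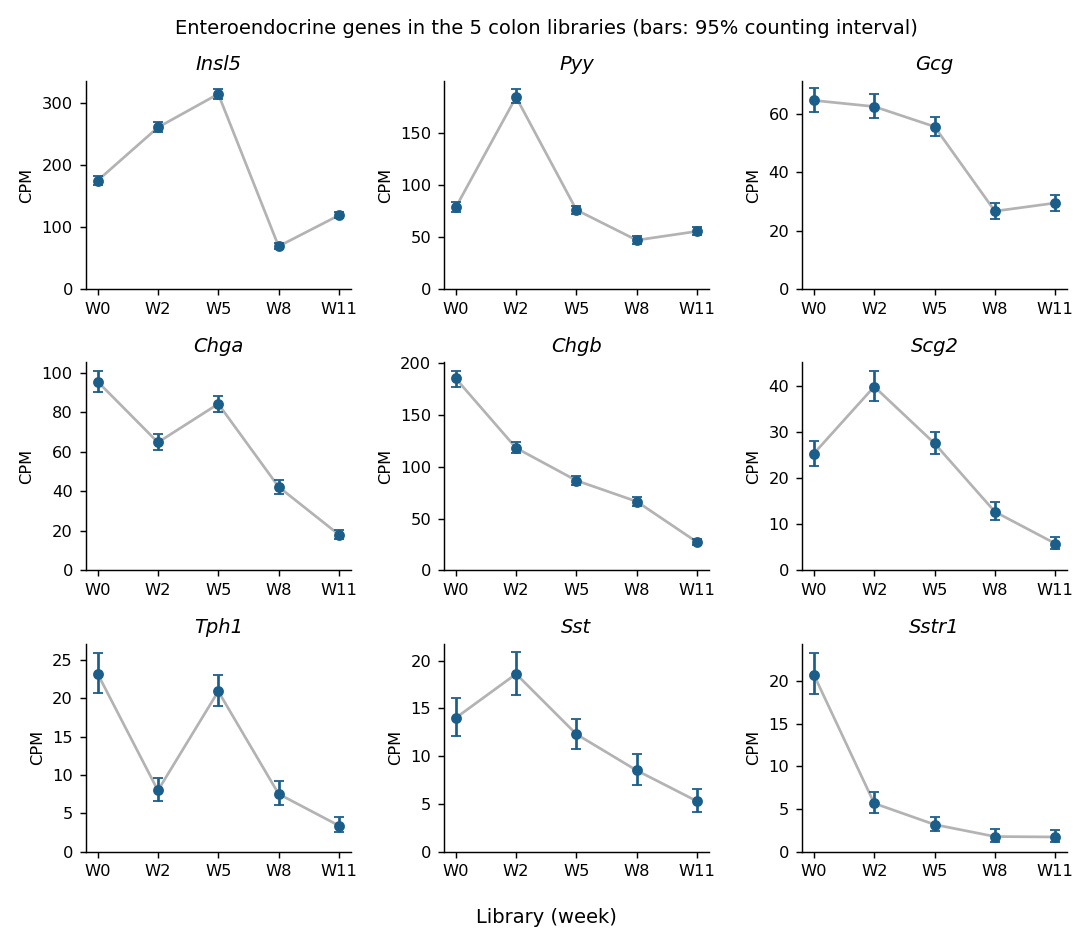
Level of each of the 9 measured genes in CPM (vertical axis, from 0) in the libraries W0, W2, W5, W8 and W11 (horizontal axis). Points are single libraries and bars are 95% counting intervals. Insl5 is highest at W5 (315 CPM), Pyy at W2 (184 CPM), and Chgb is lower in each library than in the one before.

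**Figure D2:**
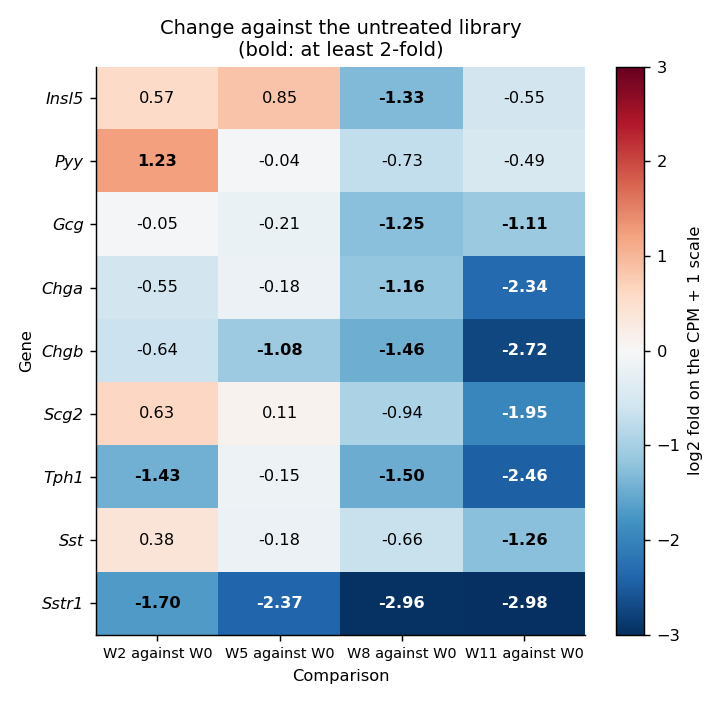
Log2 fold of each gene (rows) against W0 on the CPM + 1 scale in the 4 later libraries (columns), red for higher and blue for lower, with values of at least 2-fold in bold. Bold values number 3 (W2), 2 (W5), 6 (W8) and 7 (W11).

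Windows upstream of the transcription starts are shown because Chgb, Scg2 and Sst share there the palindrome TGACGTCA, the cAMP response element (CRE) described in the somatostatin promoter. Genes with and without it lay below W0 at W8 and W11. RefSeq promoter windows (GRCm38.p6) were matched by symbol for 9 of the 10 genes, and Sstr1 has none in the table. Within the 250 bases before the start, the CRE was found on either strand in 3 of these 9 genes and in 1.77% of the 27025 genes with a window. Its shorter core TGACG, which the CRE holds on both strands, was found in 5 of the 9 (Chga, Chgb, Scg2, Sst and Tph1) and in 19.8% of all genes. Capitals mark the CRE in the first 3 windows and the core in that of Chga, which lies at chr12:102554691-102554940 on the + strand. Chgb lies at chr2:132781392-132781641 (+ strand), Scg2 at chr1:79440027-79440276 (- strand) and Sst at chr16:23890845-23891094 (- strand).
Chgb: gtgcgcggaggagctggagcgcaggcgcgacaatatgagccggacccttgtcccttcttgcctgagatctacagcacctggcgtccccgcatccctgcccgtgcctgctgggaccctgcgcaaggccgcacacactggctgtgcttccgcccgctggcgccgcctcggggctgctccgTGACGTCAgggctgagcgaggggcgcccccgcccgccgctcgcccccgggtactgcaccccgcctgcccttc
Scg2: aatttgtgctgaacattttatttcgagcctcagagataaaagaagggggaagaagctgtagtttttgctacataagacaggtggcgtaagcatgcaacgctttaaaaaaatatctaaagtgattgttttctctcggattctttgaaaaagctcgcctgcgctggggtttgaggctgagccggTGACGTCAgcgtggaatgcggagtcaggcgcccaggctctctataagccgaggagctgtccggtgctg
Sst: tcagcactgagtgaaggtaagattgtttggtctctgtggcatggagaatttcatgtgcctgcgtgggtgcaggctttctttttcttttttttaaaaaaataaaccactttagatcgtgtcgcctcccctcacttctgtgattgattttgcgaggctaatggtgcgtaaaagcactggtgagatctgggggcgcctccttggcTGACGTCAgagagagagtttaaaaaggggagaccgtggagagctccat
Chga: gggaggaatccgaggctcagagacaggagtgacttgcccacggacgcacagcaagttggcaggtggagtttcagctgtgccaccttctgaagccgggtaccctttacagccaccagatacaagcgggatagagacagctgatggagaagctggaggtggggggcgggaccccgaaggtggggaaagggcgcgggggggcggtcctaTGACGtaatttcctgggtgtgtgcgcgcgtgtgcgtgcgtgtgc

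The CRE begins 72 bases before the start in Chgb, 68 in Scg2 and 48 in Sst, and the core begins 44 bases before the start in Chga. The E-box CAGATG, the kind of site that Neurod1 binds, was searched on both strands and found in Gcg and Insl5, 2 of the 9, and in 16.3% of all genes. The Gcg window (chr2:62483654-62483903, - strand) is shown with both of its E-boxes in capitals, because Gcg is a hormone gene without the CRE letters in this window.
Gcg: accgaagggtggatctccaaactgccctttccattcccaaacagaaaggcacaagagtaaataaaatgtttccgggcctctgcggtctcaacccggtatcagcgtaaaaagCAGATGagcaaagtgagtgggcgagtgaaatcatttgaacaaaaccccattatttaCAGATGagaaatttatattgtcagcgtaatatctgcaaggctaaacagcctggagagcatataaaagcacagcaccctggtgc

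These matches describe letters in the windows and say nothing of binding in these samples. The TATA box TATAAA was found, on either strand, in windows of Gcg and Insl5, 2 of the 9 genes, against 14.3% of all genes.

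Among the L-cell peptides, Insl5 had the highest level in each library. Insl5, the insulin-like peptide that binds the receptor Rxfp4, was measured at 175 CPM (W0), 261 (W2), 315 (W5), 68.9 (W8) and 119 (W11). It was thus above W0 in the first 2 treated libraries and below it in the last 2. Its W2 level was 1.49 times that of W0 (interval 1.42 to 1.57) and its W5 level 1.80 times (1.72 to 1.89), both short of the 2-fold criterion. At W8 it fell, to 2.54-fold below W0 (2.35 to 2.74) and 4.57-fold below W5 (4.27 to 4.90). Of the 9 genes, 4 fell from W5 to W8 (Insl5, Gcg, Tph1 and Scg2), and 0 rose, against 3.60% and 4.78% of all genes tested. The W11 level of Insl5 was 1.73 times its W8 level (1.60 to 1.88).

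Pyy, the gene of peptide YY, which slows gut transit and curbs appetite, was at 78.2 CPM (W0), 184 (W2), 75.8 (W5), 46.8 (W8) and 55.3 (W11). Only its W2 level stood well above the rest. It rose at W2 to 2.36 times W0 (2.20 to 2.54), the only gene of the 9 to rise against W0, and fell again by W5, to 2.44-fold below W2 (2.29 to 2.59). Against W2, 1 of the 9 genes fell at W5 and 1 rose, where 4.46% and 9.44% of all genes did. At W8 Pyy was 1.67-fold below W0 (1.51 to 1.85) and at W11 1.41-fold (1.29 to 1.55), neither past the criterion.

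Gcg, which encodes proglucagon, the precursor of glucagon-like peptides, was steadier over the first libraries. It was at 64.7 CPM (W0), 62.6 (W2), 55.7 (W5), 26.7 (W8) and 29.5 (W11). The first 3 libraries were thus close together and the last 2 lay below them. It fell to 2.43-fold below W0 at W8 (2.15 to 2.75) and 2.19-fold at W11 (1.96 to 2.46). The W11 criterion was not met with folds centred on the median of all genes (log2 -0.95), with the GC trend removed (-0.94), under epithelial scaling (-0.57) or under median-of-ratios scaling.

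The 3 L-cell genes therefore did not keep a fixed proportion. Insl5 had 2.70 counts per count of Gcg at W0 (interval 2.50 to 2.92), 4.16 at W2, 5.65 at W5 (5.31 to 6.03), 2.59 at W8 and 4.05 at W11. Pyy had 1.21 counts per count of Gcg at W0 (1.10 to 1.32), 2.95 at W2 (2.73 to 3.18), 1.36 (W5), 1.75 (W8) and 1.87 (W11). These count ratios are not corrected for gene length and are compared only between libraries, where the library total cancels. Insl5 and Gcg thus moved apart most at W5, and Pyy and Gcg most at W2.

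Among the granins, chromogranin A (Chga), the classical marker of endocrine granules, was measured at 95.6 CPM (W0), 64.8 (W2), 84.3 (W5), 42.3 (W8) and 18.1 (W11). The W5 level lay above that of W2, and the last 2 libraries were the lowest. Chga fell to 2.26-fold below W0 at W8 (2.05 to 2.50) and 5.27-fold below at W11 (4.62 to 6.03). Chromogranin B (Chgb) was at 185 CPM (W0), 118 (W2), 86.6 (W5), 66.4 (W8) and 27.2 (W11), lower in each library than in the one before. It fell to 2.13-fold below W0 at W5 (2.01 to 2.27), 2.78-fold at W8 (2.57 to 3.00) and 6.79-fold at W11 (6.12 to 7.56).

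The W5 fall of Chgb was close to the criterion, with a log2 fold of -1.08, and it was not met against W2 (log2 -0.45), under epithelial scaling, with the GC trend removed or in the RPKM columns. Secretogranin II (Scg2), a granin that is also plentiful in neurons, was at 25.3 CPM (W0), 39.8 (W2), 27.5 (W5), 12.7 (W8) and 5.82 (W11). Its level was highest at W2, and the W8 and W11 levels lay below the other 3. Scg2 was 1.57 times its W0 level at W2 (1.37 to 1.80), 1.99-fold below W0 at W8 (1.66 to 2.41), just outside the criterion, and fell to 4.35-fold below at W11 (3.43 to 5.57). With folds centred on the median of all genes, its W8 fold was -1.06 and met the criterion, as it did with the length or GC trend removed and under median-of-ratios scaling.

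Tph1, the rate-limiting enzyme of serotonin synthesis outside the brain, was measured at 23.2 CPM (W0), 7.99 (W2), 20.9 (W5), 7.54 (W8) and 3.41 (W11). The W2, W8 and W11 levels were low and the W5 level was close to that of W0. Tph1 fell to 2.91-fold below W0 at W2 (2.34 to 3.62), rose from W2 to W5 by 2.62-fold (2.13 to 3.24), and fell again to 3.08-fold below W0 at W8 (2.45 to 3.89) and 6.81-fold at W11 (5.05 to 9.34). On the scale of log2(RPKM + 1) none of its falls against W0 met the criterion, with values of -0.71 at W2, -0.71 at W8 and -0.98 at W11. The added 1 is large beside its RPKM of 1.37 at W0, 0.45 at W2 and W8, and 0.20 at W11. Lmx1a, a transcription factor that drives Tph1 in enterochromaffin cells, was chosen for mention after its values were seen: it was at 2.32 CPM (W0), 0.888 (W2), 2.11 (W5), 0.747 (W8) and 0.268 (W11). It too was lower at W2 than at W0 and W5, and met the criterion at W11 only (log2 -1.39), on between 4 and 43 counts a library.

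Sst, the somatostatin gene of D cells and of some neurons, was at 14.0 CPM (W0), 18.6 (W2), 12.3 (W5), 8.51 (W8) and 5.29 (W11). Its levels were highest at W2 and lower in each later library. It was 1.65-fold below W0 at W8 (1.30 to 2.09) and fell to 2.65-fold below at W11 (2.03 to 3.49), on 79 counts. That fall missed the criterion with a pseudocount of 5 (log2 -0.89) and under epithelial scaling (-0.76). Sstr1, a receptor for somatostatin that couples to inhibitory G proteins, was at 20.7 CPM (W0), 5.67 (W2), 3.19 (W5), 1.79 (W8) and 1.74 (W11). Every treated library lay below the control, and the last 2 were alike. Sstr1 fell at W2 to 3.65-fold below W0 (2.85 to 4.72) and reached 11.5-fold at W8 (7.60 to 18.3) and 11.9-fold at W11 (7.95 to 18.5), where it rested on 24 and 26 counts.

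The receptor and its ligand gene did not move alike at W2. Sstr1 had 1.48 counts per count of Sst at W0 (1.23 to 1.78) and 0.305 at W2 (0.236 to 0.392), and between 0.211 and 0.329 in the later libraries. Among the other somatostatin receptors, Sstr2 was listed at 0 in all libraries and Sstr4 at 5 counts or fewer in each. Sstr3 was at 0.747 to 1.82 CPM and passed the criterion nowhere. Sstr5 had 18 counts at W0, 23 at W2, 14 at W5 and 1 each at W8 and W11, under the mean of 1 CPM that a test needed.

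Levels of different genes were compared per length, in the deposited RPKM-like values (counts scaled for gene length and library). At W0 the order was Insl5 at 74.16, Chgb at 32.36, Pyy at 29.75, Gcg at 16.01, Chga at 14.29, Sst at 9.33, Sstr1 at 2.64, Scg2 at 2.52 and Tph1 at 1.37. Within this order Chgb and Pyy, Gcg and Chga, and Sstr1 and Scg2 were not set apart by their counting intervals. Insl5 was first in all 5 libraries, and Pyy was second from W2 on. At W11 the order was Insl5 at 50.13, Pyy at 20.81, Gcg at 7.22, Chgb at 4.71, Sst at 3.48, Chga at 2.68, Scg2 at 0.57, Sstr1 at 0.22 and Tph1 at 0.20. There the neighbours Chgb and Sst, Sst and Chga, and Sstr1 and Tph1 had overlapping intervals.

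Insl5, Pyy and Gcg together held 65.7% of the summed per-length level of the 9 genes at W0, 80.4% (W2), 81.4% (W5), 67.7% (W8) and 86.8% (W11). The granins Chga, Chgb and Scg2 held 27.0%, 14.1%, 14.1%, 24.3% and 8.84%. The share of the L-cell peptides was thus lowest at W0 and W8, and that of the granins lowest at W11. In counts, Insl5 had 1.83 per count of Chga at W0 (1.71 to 1.96), 4.03 (W2), 3.74 (W5), 1.63 at W8 (1.47 to 1.81) and 6.59 at W11 (5.80 to 7.52).

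**Figure D3:**
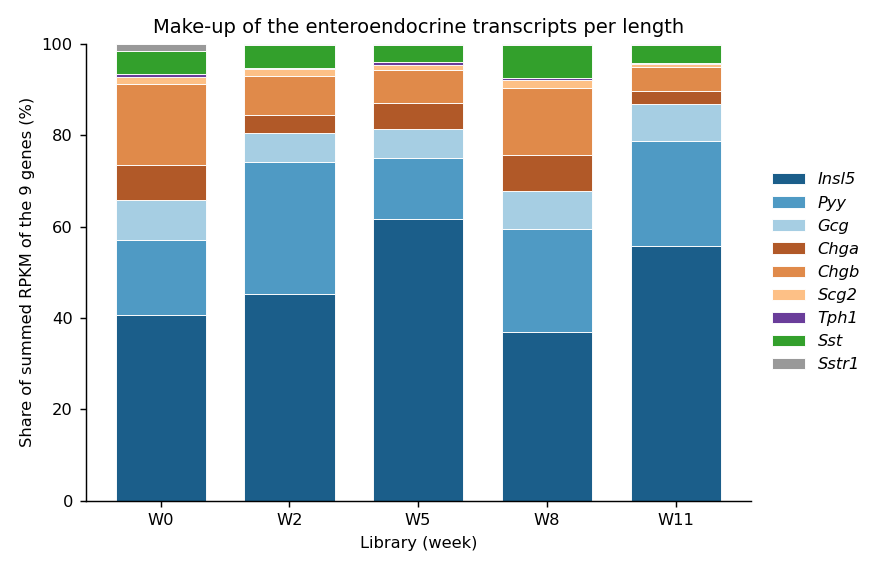
Share of each gene in the summed RPKM of the 9 measured genes (vertical axis, percent) in the 5 libraries (horizontal axis), 1 bar for each library with no replicates. The blue parts (Insl5, Pyy and Gcg) make up 65.7% at W0 and 86.8% at W11.

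Gene length moved with the W11 values. Over all genes tested, split into 5 equal classes by length, the median log2 fold at W11 was 0.42 in the class of the shortest genes and -0.62 in that of the longest, while at W8 these medians were 0.20 and 0.01. The L-cell peptides and Sst are short, at 0.12 to 0.33 of the median gene length, and the granins, Sstr1 and Tph1 are longer, at 0.46 to 1.37. With the median fold of genes of like length subtracted, all 9 genes met the criterion for a fall at W11. Of the 14720 genes tested, 1648 met it there too. This correction was chosen after seeing the data. Insl5 then stood at -1.08, Pyy at -1.02 and Gcg at -1.45, and the granins at -1.84 to -2.94. The part of length in the W11 spread between these genes was not tested.

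Epithelial markers summed to less in every later library than at W0, W2 and W5 included. The 11 general epithelial markers, among them Epcam and the keratins, summed to 25510 CPM (W0), 19733 (W2), 19448 (W5), 17544 (W8) and 17458 (W11). The enteroendocrine genes summed to 763 CPM at W2 and 681 at W5, as at W0. The median log2 fold of the epithelial markers was -0.22 (W2), -0.43 (W5), -0.45 (W8) and -0.65 (W11). At W8 and W11, 0 and 2 of the 10 measured markers fell, where 3.85% and 16.9% of all genes did. Krt8 alone made 44.4% to 56.9% of this sum. Scaled to the summed markers, 2 of the 9 genes fell at W8 (Tph1, just at the criterion, and Sstr1 at -2.50), and Chga stood at -0.63, Chgb at -0.93, Insl5 at -0.80 and Gcg at -0.72. At W11, 5 fell on that scale (Chga, Chgb, Scg2, Tph1 and Sstr1), while Insl5 was at -0.00 and Pyy at 0.05. Of the 14720 genes tested, 182 fell and 3083 rose at W8 on that scale, and 951 fell and 3352 rose at W11.

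The choice of the early library bears on W8 as well. Against W2, 6 genes fell at W8, where 5.56% of all genes did and 10.7% rose, and 3 of them (Gcg, Insl5 and Sstr1) were among the 6 that fell against W0. The other genes that fell were Pyy, Sst and Scg2, each highest at W2, and Chga at -0.60, Chgb at -0.82 and Tph1 at -0.07 did not meet the criterion. All 9 genes fell at W11 against W2, where 13.4% of all genes did and 9.25% rose. From W8 to W11, 3 genes fell (Chga, Chgb and Scg2) and 0 rose, against 11.9% and 3.40% of all genes.

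Enteric neurons share several of these genes, and their markers moved at W2. Of 17 neuron and glia markers 13 were measured, with a median log2 fold of 1.25 at W2. There 8 of them rose and 0 fell, where 3.41% and 4.23% of all genes did. The synaptic gene Snap25 was at 9.29 CPM (W0), 27.3 (W2), 7.90 (W5), 2.39 (W8) and 2.14 (W11). The summed level of the 17 was 293 CPM (W0), 500 (W2), 345 (W5), 208 (W8) and 131 (W11), and Tubb3 was listed at 0 throughout. Scg2 and Sst were likewise highest at W2 and lowest at W11, and the part of neurons in their levels was not tested. At W11, 5 of the 13 neuron and glia markers fell, where 16.9% of all genes did. The 5 included Nos1, the neuronal nitric oxide synthase, at -2.01, and the adhesion gene L1cam at -2.19.

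Other granins and the enzymes that cut and trim prohormones were followed as a list of 13 genes, all measured. At W2 1 fell and 1 rose, where 4.23% and 3.41% of all genes did. At W5 and W8 0 passed the criterion, and at W11 3 fell and 0 rose, where 16.9% and 11.3% of all genes did. The median log2 fold of this list was 0.40 (W2), 0.03 (W5), -0.48 (W8) and -0.79 (W11). Cpe, the carboxypeptidase that trims peptide ends, was at 92.0 CPM (W0), 154 (W2), 76.6 (W5), 54.1 (W8) and 42.5 (W11), and fell at W11 by 1.10 on the log2 scale. Pcsk2, a prohormone convertase, fell at W11 by 1.35, on 8 counts. The granule phosphatase-like genes Ptprn and Ptprn2 went opposite ways at W2, Ptprn rising by 1.23 and Ptprn2 falling to -1.11. Ptprn2 was at 31.0 CPM (W0), 13.9 (W2), 27.8 (W5), 22.0 (W8) and 7.83 (W11), low at W2 as Tph1 was. Scg3, a granin partner of Chga in sorting, was at 6.17 CPM at W0 and 2.61 at W8, a log2 fold of -0.99.

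Of 17 transcription factors of the endocrine lineage, 10 were measured. At W2 and W5 0 passed the criterion in either direction. At W8 3 fell and 0 rose, where 3.85% and 7.79% of all genes did. At W11 5 fell and 1 rose, against 16.9% and 11.3% of all genes. The list medians were 0.09, -0.26, -0.78 and -0.97 from W2 to W11. Atoh1, which opens the secretory lineage to goblet as well as endocrine fates, was at 52.4 CPM (W0), 38.2 (W2), 41.3 (W5), 31.8 (W8) and 11.8 (W11), and fell at W11 by 2.06. Insm1, a zinc finger factor of endocrine differentiation, fell from 3.56 CPM at W0 to 1.27 at W8 and 0.535 at W11. Etv1 was at 5.30 CPM (W0), 8.74 (W2) and 0.937 (W11), a fall of 1.70. Isl1, a homeobox factor of endocrine cells that neurons and other cells express too, was at 2.76 CPM (W0), 4.48 (W8) and 11.1 (W11), and rose at W11 by 1.69, against the direction of the rest.

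**Figure D4:**
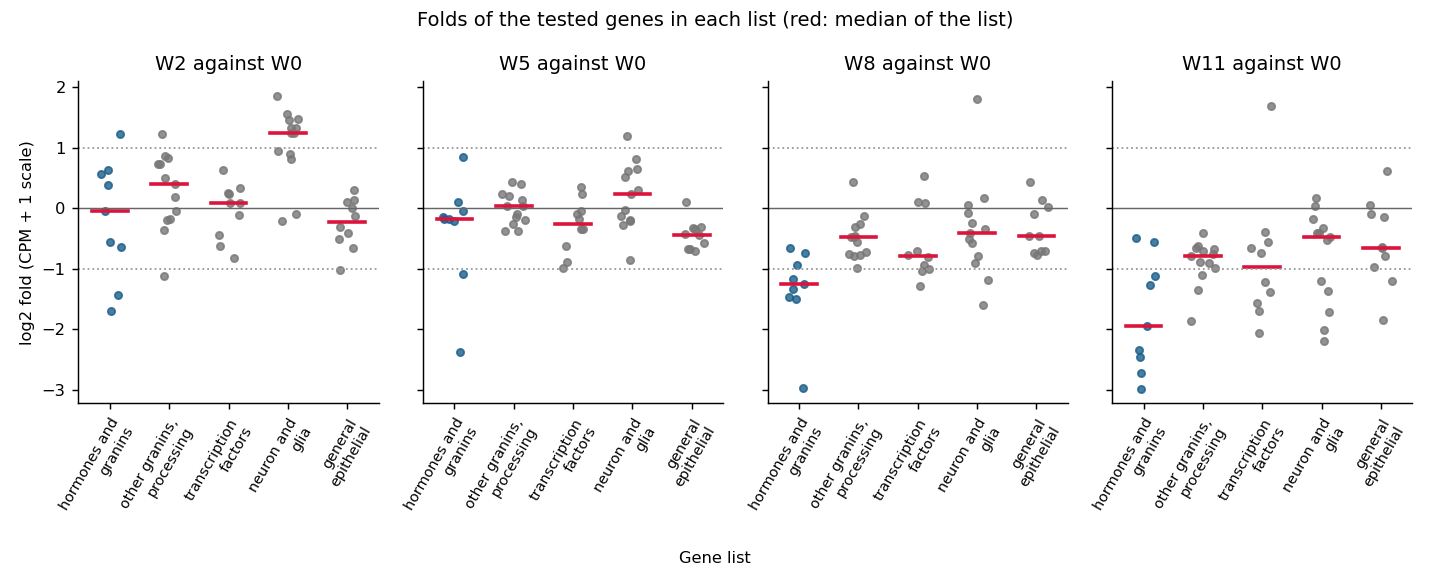
Log2 fold against W0 on the CPM + 1 scale (vertical axis) of each measured gene in 5 lists (horizontal axis), 1 panel for each later library, with blue points for the hormones and granins, grey points for the other lists, red lines for list medians and dotted lines at 2-fold. The hormone and granin median goes from -0.05 at W2 to -1.95 at W11, and the neuron and glia median is 1.25 at W2.

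Around Tph1, the other genes of serotonin handling went different ways. Slc18a1, the vesicular transporter VMAT1 that loads serotonin into endocrine granules, was at 2.90 CPM (W0), 3.69 (W2), 10.8 (W5), 27.0 (W8) and 32.0 (W11). It was higher in each library than in the one before, and rose by 1.60 (W5), 2.84 (W8) and 3.08 (W11) on the log2 scale, while Tph1 was low in the last 2. Slc18a1 had 0.125 counts per count of Tph1 at W0 (0.0876 to 0.174), 3.58 at W8 (2.87 to 4.51) and 9.39 at W11 (7.03 to 12.8). Ddc, which makes serotonin from the product of Tph1, passed the criterion nowhere, with log2 folds between -0.80 and 0.56.

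Among the genes that clear and sense serotonin, Slc6a4, Maoa and Htr4 fell at W8 and W11. The receptor genes Htr3a and Htr7 had log2 folds of 0.09 and 0.26 at W8 and -0.03 and 0.32 at W11. They were at 0.290 and 1.09 CPM at W0. On this scale Htr3a could thus not meet the criterion for a fall, and Htr7 only at a level near 0. Slc6a4, the serotonin uptake transporter, was at 38.8 CPM (W0), 33.3 (W2), 23.0 (W5), 9.93 (W8) and 10.2 (W11), and fell at W8 by 1.87. Maoa, which oxidises serotonin, was at 500 CPM (W0), 568 (W2), 556 (W5), 226 (W8) and 220 (W11), and fell at W8 by 1.14. Htr4, a serotonin receptor of gut neurons and epithelium, was at 32.7 CPM (W0), 35.4 (W2), 25.7 (W5), 10.8 (W8) and 4.08 (W11), and fell at W11 by 2.73. Htr3a, the receptor channel of nerve cells, rose at W2 from 0.290 to 4.23 CPM, the library in which neuron markers rose. It reached a mean of 1 CPM only through that W2 level. Of the 10 genes of serotonin handling, all measured, 3 fell and 2 rose at W8, and 4 fell and 1 rose at W11. Of all genes, 3.85% fell and 7.79% rose at W8, and 16.9% fell and 11.3% rose at W11. The list median was 0.22 (W2), 0.33 (W5), -0.09 (W8) and -0.31 (W11).

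**Figure D5:**
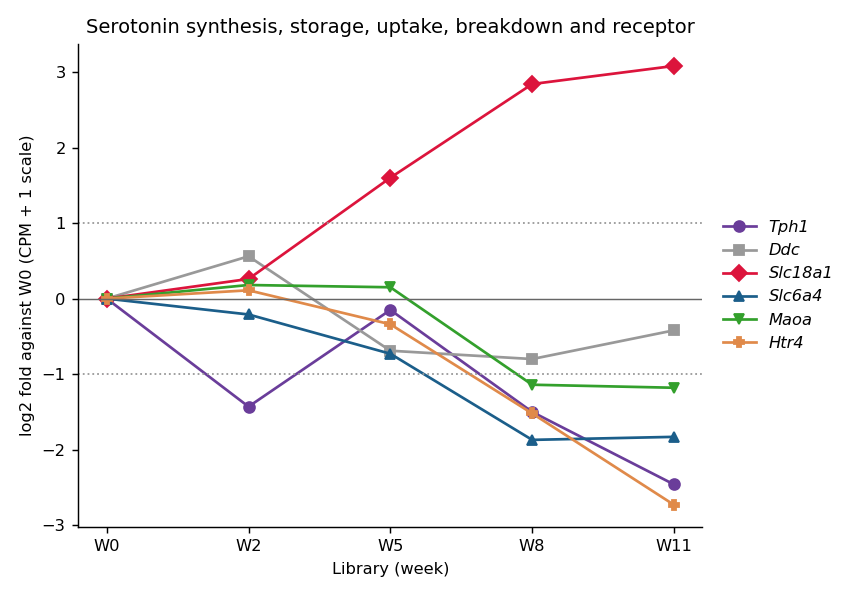
Log2 fold against W0 on the CPM + 1 scale (vertical axis) of Tph1 and 5 genes that handle serotonin in the 5 libraries (horizontal axis), with dotted lines at 2-fold and single libraries as points. Slc18a1 reaches 3.08 at W11, where Tph1 is at -2.46, Slc6a4 at -1.83 and Htr4 at -2.73.

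Of 8 other gut hormone genes, 4 were measured (Tac1, Ppy, Sct and Nts). Of these, 0 fell against W0 in any library, where 1.87% to 16.9% of all genes did. Nts, at 0.290 CPM at W0, could not fall 2-fold on the CPM + 1 scale. Tac1, the precursor of substance P in enterochromaffin cells and in neurons, was at 13.6 CPM (W0), 18.8 (W2), 24.1 (W5), 49.9 (W8) and 26.0 (W11), and rose at W8 by 1.80. Nts, the gene of neurotensin, had its W0 level at 0.290 CPM, and was at 2.39 at W8 and 4.15 at W11, rises of 1.39 and 2.00. It reached a mean of 1 CPM only through these late levels. Ppy, the pancreatic polypeptide gene of the Pyy family, was at 9.36 CPM at W0 and 4.88 at W11, a log2 fold of -0.82. The median of these 4 genes, Nts included, was 0.25 (W2), 0.23 (W5), 0.72 (W8) and 0.56 (W11). Because Nts could only rise, this median is not set against that of the 9 genes. Without Nts, the W8 log2 folds were 1.80 (Tac1), 0.06 (Sct) and -0.77 (Ppy), and those at W11 were 0.88, 0.23 and -0.82.

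Markers of position along the gut and of other secretory cells give the setting. Beside the counts below, 3.85% of all genes fell and 7.79% rose at W8, and 16.9% fell and 11.3% rose at W11. Of 7 posterior genes, all measured, 1 fell at W8 (Hoxd11 at -1.13). The medians of this list were 0.31 (W2), -0.36 (W5), -0.78 (W8) and -0.15 (W11). Of 8 small intestine genes only Fabp6 was measured, at 29.2 CPM at W2, where Pyy was highest, and at 1.86 to 7.77 CPM elsewhere. Of 10 goblet and tuft cell genes, 9 were measured, and at W8 3 fell and 1 rose, and at W11 5 fell and 1 rose. At W8 the goblet genes Fcgbp and Tff3 fell, to log2 folds of -1.79 and -1.19, as did the tuft cell channel gene Trpm5 at -1.20. Avil, of the same list, rose by 3.29. Spdef at 0.27, Agr2 at -0.24, Pou2f3 at -0.17 and Dclk1 at -0.99 did not meet the criterion at W8. The goblet mucin Muc2 had a log2 fold of -0.07 at W8 and fell at W11, to -2.39. The list median was -0.24 at W8 and -1.67 at W11. Of 7 immune markers, all measured, 0 fell and 1 rose at W8 and 0 fell and 2 rose at W11, with list medians of 0.33 and 0.54. The neutrophil gene S100a9 rose at both, from 0.435 CPM at W0 to 102 and 111, while the pan-leukocyte gene Ptprc had log2 folds of -0.31 and -0.62. S100a9 could not fall 2-fold on the CPM + 1 scale, and it reached a mean of 1 CPM only through W5, W8 and W11. Whether tissue composition or region sampled bears on the values of the 9 genes was not tested.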

How the data were processed

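RNA of mouse colon was extracted with TRIzol and made into libraries with an Illumina TruSeq kit, per the labels' protocols. Per the submitters' processing notes, the tools were FastQC, featureCounts and HISAT2 2.2.1, with both GRCm38 and GRCm39 as builds. No source used here gives their roles, the annotation or the strand setting. The deposited table holds a pair of columns per library. The deposited columns headed TPM are counts, all whole numbers, with totals that differ between libraries. Those headed count hold RPKM values as deposited, that is, counts per gene length and library denominator. In all 2620 genes over 5 RPKM in every library the ratio of the columns, relative to W0, was the same within 1%, so the headers were taken to be exchanged.

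CPM were counts per library total, and folds are differences of log2(CPM + 1), which understates changes of low genes. Genes averaging 1 CPM or more were tested, with 2-fold as the criterion. Ratios have exact conditional (Clopper-Pearson) 95% intervals and levels exact Poisson ones, and reads without molecular identifiers are not independent molecules. Totals ranged from 13389184 to 20379429 counts, so 3 counts, the limit that a count of 0 allows, equal 0.147 to 0.224 CPM. Of each list, up to 4 measured genes with the largest folds were named. Others, like genes listed at 0, were named after their values were seen. These were Scg3, Lmx1a, Maoa, Ddc, Snap25, Dpp4, Glp1r, Ffar2, Ffar4, Htr7, Tff3, Agr2, Spdef, Pou2f3 and Dclk1. So were Ptprc, Krt8, Epcam and the receptors of Sst and Insl5. The genes and lists were chosen with earlier results of these data known. The values of 1 gene in the list of posterior genes are not reported here. The fold step was tested on simulated counts. Alternatives were other pseudocounts, filters, scalings, columns and baselines. GC content was that of the longest GENCODE M21 transcript, and the quotient of both deposited columns gave relative gene length. Values were computed in Python 3.11.15 (scipy 1.17.1, pandas 2.3.3, numpy 2.4.6) and plotted with matplotlib 3.10.9.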

Additional observations from a re-analysis of the deposited data

How the results depend on the processing

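No paired analysis was possible because each time point has 1 library, and for the same reason no replicate could be left out. A pseudocount of 0.1 or 5, tests of unfiltered genes or of those averaging 5 CPM or more, and median-of-ratios scaling gave a number of genes that fell of 2 for W2, 2 for W5, 6 or 7 for W8 and 6 or 7 for W11. With the RPKM columns 1 gene fell at W2, where Tph1 was at -0.71, and 1 at W5, where Chgb was at -0.97. Over all 14720 genes tested, 282 fell at W2 and 120 at W5 in these columns. Within a gene the length scaling acts only through the added 1, which shrinks folds where RPKM are low. Tph1 was at 1.37 RPKM at W0 and 0.45 at W2. The library denominator differs as well, and the part of each was not tested. Under scaling to epithelial markers 1 fell and 1 rose at W5 (Insl5 at 1.23), where 68 and 2178 of all genes did, and 2 fell at W8. Against W2, 1 fell and 1 rose at W5, where 4.46% and 9.44% of all genes did. With the GC trend removed, a choice made after seeing the data, 1 fell at W5, since Chgb was then just short of the criterion. Of all genes, 321 fell there. With the length trend removed 7 fell at W8 and 9 at W11, where 754 and 1648 of all genes did. No called fold changed sign under any of these 11 alternatives. Counts over all genes depend more on the settings: at W8 567 genes fell and 1146 rose, and these were 277 and 652 with a pseudocount of 5, 226 and 526 with the RPKM columns, and 182 and 3083 with epithelial scaling. At W11 2484 fell and 1662 rose, and with folds centred 1876 fell and 2077 rose. There 951 fell with epithelial scaling, 852 with the RPKM columns and 1648 with the length trend removed. Depth limits genes with few counts: Sstr1 had 24 at W8, and Ffar1 had 2 at W8 and 1 at W11, Nts and Htr3a 4 at W0, Lmx1a 4 at W11, Agtr1a 6 and Pcsk2 and Cnr1 8 at W11.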

Other observations

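Receptors and sensors that act on or in enteroendocrine cells were mostly low. Of 17 genes of hormone receptors, the peptidase gene Dpp4 included, 7 were measured, and at W11 3 fell and 0 rose, where 16.9% and 11.3% of all genes did. The list median at W11 was -0.34, beside -0.15 over all genes. Glp2r, the receptor of glucagon-like peptide 2, was at 14.6 CPM (W0), 18.4 (W5), 10.6 (W8) and 5.02 (W11), and fell at W11 by 1.37. Npy1r, a receptor of peptide YY and neuropeptide Y, was at 13.7 CPM (W0), 20.6 (W2) and 4.75 (W11), a fall of 1.36. Npy4r rose at W2 from 3.48 to 13.4 CPM, in the library where Pyy was highest, and the neuron markers were highest there too. Dpp4, which inactivates glucagon-like peptides and trims peptide YY, was at 28.6 CPM at W0 and 13.3 at W11, a fall of 1.05. Rxfp4, the receptor of Insl5, was at 0.508 CPM or less in each library, and Glp1r was listed at 0 in all.

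Of 11 nutrient and microbial sensors 6 were measured, and at W8 2 fell (Ffar1 and Avpr1b), at W11 3 (these and Agtr1a), and 0 rose at either. Of all genes, 3.85% fell and 7.79% rose at W8, and 16.9% fell and 11.3% rose at W11. Ffar1, a receptor for long-chain fatty acids on L cells, was at 1.52 CPM (W0), 2.53 (W2), 0.981 (W5), 0.149 (W8) and 0.0669 (W11). It reached a mean of 1 CPM only through its levels before W8, as did Avpr1b and Agtr1a. The cannabinoid receptor gene Cnr1 rose at W2 from 1.45 to 6.76 CPM. Ffar2 and Ffar4, which other colon cells express as well, passed the criterion nowhere.

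Of the 9984 genes that averaged 10 CPM or more, those whose log2 differences from W0 over the 4 later libraries lay nearest to Chga were Slc36a1, Dgkh, Epb41l3, Entpd5 and Fkbp5, at Euclidean distances of 0.28 to 0.31. Slc36a1 was at 143 CPM (W0), 87.2 (W2), 120 (W5), 69.5 (W8) and 24.0 (W11). The nearest of the endocrine genes ranked were Tph1, at a distance of 0.95 and rank 274, and Chgb, at 1.03 and rank 369. The farthest of those ranked was Pyy at 2.60. Sstr1 and Neurod1 averaged less than 10 CPM and were not ranked. Over so few libraries many genes share a profile, and the likeness is a description.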
